A study of Homo sapiens with 6 samples.

Results

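The microRNA (miRNA) family of miR-130, miR-301 and miR-454 was followed in HEK 293T cells, an immortalized human embryonic kidney line, with and without the terminal uridylyltransferases TUT4 and TUT7. Of the 8 mature arms of the family chosen by name, 7 had a row in the count table of 1000 miRNAs, namely hsa-miR-130b-3p and hsa-miR-130b-5p, hsa-miR-301a-3p and hsa-miR-301a-5p, hsa-miR-454-3p and hsa-miR-454-5p, and hsa-miR-301b-3p. The eighth, miR-130a-3p, was not analysed here. All 7 passed the limit on low counts and were among the 826 miRNAs tested. The 5p arm of miR-301b is not in the list and is used below only to compare the arms of its hairpin.

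Both groups were untreated cultures with 3 libraries each. One is wild type, obtained from a cell bank, and the other is a TENT3A/B (TUT4/7) double knockout, called ΔTUT4/7, which is a single strain given by another laboratory. The deletion and other differences between the 2 stocks cannot be told apart. The libraries held between 4338558 and 7967606 counts, and levels are given per 1000000 counts of the library (CPM). TUT4 and TUT7 themselves are not measured by mature miRNA counts, so the labels could not be checked with them. Of 8 miRNAs that mark liver, blood, muscle or nerve cells, 4 are listed. Their summed level was 33.5 to 39.0 CPM in ΔTUT4/7 and 54.6 to 104.4 CPM in wild type libraries. Nearly all of it came from miR-142-3p, a miRNA of blood cells. miR-142-5p had 1.38 to 1.87 CPM in ΔTUT4/7 and 2.76 to 5.76 CPM in wild type libraries. miR-451a, of red cells, had 0.42 to 0.64 and 0.63 to 1.13 CPM, and miR-122-5p, of liver, 0.21 to 0.79 and 1.13 to 1.76 CPM. Not listed are miR-223-3p of blood cells, miR-1-3p and miR-133a-3p of muscle and miR-124-3p of neurons. Wild type replicate 3 stood apart from the other two. The chi-square per degree of freedom was taken over the miRNAs that passed a limit on the summed count of the pair. Its value was 293.2 and 283.7 in the pairs of this library with wild type replicates 1 and 2. Between replicates 1 and 2 it was 99.2, and among the ΔTUT4/7 libraries 13.3 to 54.9. Wild type replicate 3 was also the highest in miR-142-3p, at 96.3 CPM against 61.6 and 49.5 CPM in wild type replicates 1 and 2. The same held in all 4 of the 3p arms described below, so the main changes are given with and without this library. The part of miR-142-3p in the results was not tested.

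A miRNA hairpin is cut out of its primary transcript by Drosha and opened by Dicer into a duplex of a 5p and a 3p arm. One arm is usually kept by an Argonaute protein as the guide and the other is degraded, and the guide finds mRNAs through its seed, bases 2 to 8. TUT4 and TUT7 add uridines to the 3′ end of precursor and mature miRNAs, which can mark a precursor for decay or, in precursors of group II, prepare it for Dicer. The guide strands of the family are the 3p arms, which are known to repress SMAD4, a mediator of TGF-β signalling. In the study's list of group II hairpins the family is represented by miR-130a and miR-130b, and miR-301a, miR-301b and miR-454 are not on it.

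The mature sequences from RefSeq (GRCh38.p14) are shown with the seed in capitals, because the seed defines the family and the remaining bases decide which reads belong to which member.
hsa-miR-130b-3p: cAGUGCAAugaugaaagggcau
hsa-miR-301b-3p: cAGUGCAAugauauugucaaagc
hsa-miR-301a-3p: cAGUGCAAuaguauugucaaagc
hsa-miR-454-3p: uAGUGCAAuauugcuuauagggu
hsa-miR-130b-5p: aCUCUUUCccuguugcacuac
hsa-miR-301a-5p: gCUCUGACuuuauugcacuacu
hsa-miR-454-5p: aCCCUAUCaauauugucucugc
All 4 of the 3p arms carry the seed AGUGCAA, while the 3 5p arms each have a seed of their own. Among the 897 listed miRNAs with a RefSeq mature sequence, only these 4 have the seed AGUGCAA. The 6 bases GUGCAA also occur within bases 1 to 8 of miR-19a-3p and miR-19b-3p. The reads were trimmed to 18 nt, and over these bases the closest pair in the family is miR-301a-3p and miR-301b-3p, which differ by A10G and G11A, counted from the 5′ end of miR-301a-3p. No member shares its first 18 nt with another listed miRNA.

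The hairpins of 3 members are shown with both arms in capitals, so that the 2 strands compared below can be seen in their precursor.
MIR130B: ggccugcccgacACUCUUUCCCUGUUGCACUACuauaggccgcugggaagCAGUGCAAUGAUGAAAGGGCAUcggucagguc
MIR301A: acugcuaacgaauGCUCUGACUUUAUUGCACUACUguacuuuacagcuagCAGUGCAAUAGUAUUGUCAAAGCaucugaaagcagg
MIR454: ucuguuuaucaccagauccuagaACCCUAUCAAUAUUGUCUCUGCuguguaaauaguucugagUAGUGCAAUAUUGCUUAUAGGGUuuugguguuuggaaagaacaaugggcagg
MIR301A (chromosome 17, 59151136 to 59151221, minus strand of hg38) and MIR454 (59137758 to 59137872) lie 13263 bases apart, both in an intron of SKA2, a gene of the spindle and kinetochore complex, and on its strand. MIR301B (chromosome 22, 21652981 to 21653058, plus strand) and MIR130B (21653304 to 21653385) are 245 bases apart, inside a lncRNA gene that spans 21652184 to 21670237 in GENCODE 44. The miR-301b arms and miR-130b-5p fall in its introns, and miR-130b-3p overlaps an exon of at least 1 of its transcripts.

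The 3p arms made up most of the family's counts, and all 4 were lower in ΔTUT4/7 cells. The mature arms are 21 to 23 nt long and all reads were trimmed to 18 nt, so the CPM were not divided by length. Whether arms were captured equally was not tested. miR-454-3p was the most abundant, at 4235, 4033 and 3731 CPM in ΔTUT4/7 replicates 1, 2 and 3 and 5695, 5826 and 6464 CPM in wild type replicates 1, 2 and 3. miR-301a-3p, its neighbour in SKA2, reached 1495, 1616 and 1640.1 CPM in the ΔTUT4/7 libraries against 1951, 1906 and 2514 CPM. In both arms every ΔTUT4/7 library lay below every wild type library, and wild type replicate 3 was the highest.

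Of the pair on chromosome 22, miR-130b-3p had 918 CPM in ΔTUT4/7 replicate 1, 861 CPM in replicate 2 and 807 CPM in replicate 3, against 1347, 1445 and 1849 CPM in the wild type replicates. miR-301b-3p reached 74.1, 92.1 and 86.6 CPM in the ΔTUT4/7 libraries against 242.7, 220.1 and 444 CPM. The strains did not overlap for either arm, and wild type replicate 3 stood far above the other two for miR-301b-3p.

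Each 5p arm was rarer than the 3p arm of its own hairpin, and the 5p arms did not move together. miR-130b-5p reached 123.6, 140.3 and 141.2 CPM in the ΔTUT4/7 libraries against 177.5, 173.1 and 186.7 CPM, again without overlap. For miR-454-5p the ΔTUT4/7 libraries gave 90.9, 80.0 and 82.3 CPM and the wild type libraries 109.9, 96.3 and 81.8 CPM, which overlapped. miR-301a-5p was higher in ΔTUT4/7 cells, at 10.4, 9.98 and 8.53 CPM against 2.95, 2.51 and 2.07 CPM. It rests on few reads, with 53, 48 and 40 counts in ΔTUT4/7 and 13, 20 and 9 counts in wild type libraries, yet its strains did not overlap. In wild type cells the order from the highest mean level was miR-454-3p, miR-301a-3p, miR-130b-3p, miR-301b-3p, miR-130b-5p, miR-454-5p and miR-301a-5p, and the libraries of neighbours in this order did not overlap. In ΔTUT4/7 cells miR-301b-3p, at 84.3 ± 9.22 CPM (SD, n = 3), had dropped below miR-130b-5p without overlap. Its level there matched that of miR-454-5p, at 84.4 ± 5.70 CPM (SD, n = 3).

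**Figure D1:**
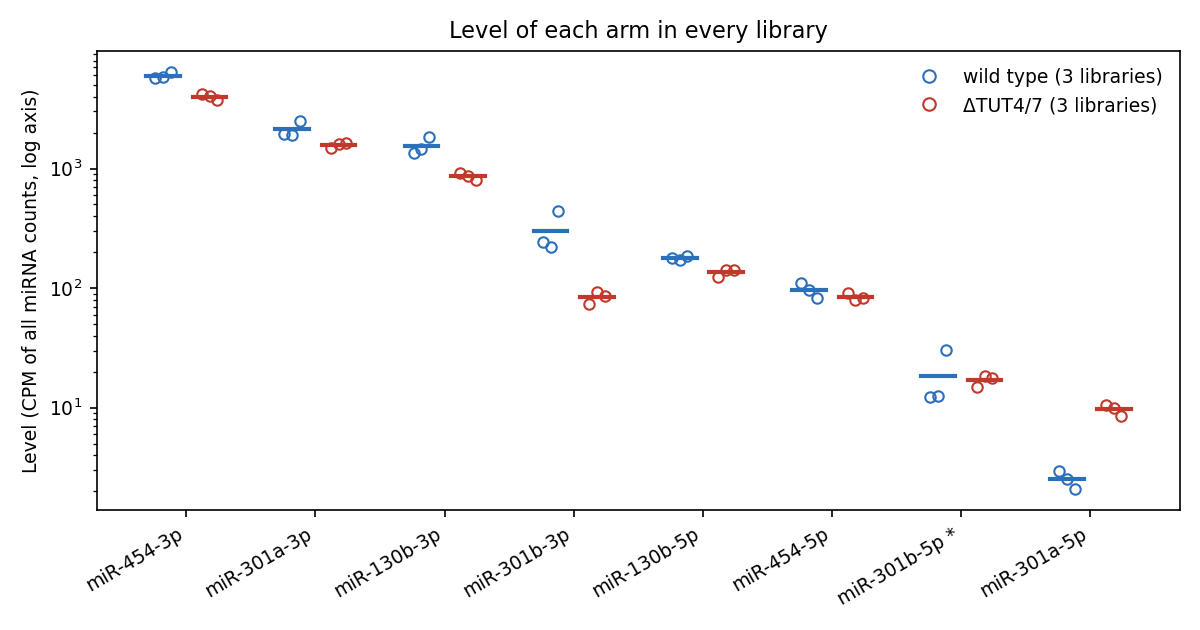
Level of each arm in CPM (log axis) in the 3 wild type (blue) and 3 ΔTUT4/7 (red) libraries, with bars at the group means. The arm marked with an asterisk, miR-301b-5p, is outside the list. The 3p arms sit lower in ΔTUT4/7, most of all miR-301b-3p with 74.1 to 92.1 CPM against 220.1 to 444 CPM, and miR-301a-5p sits higher.

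In the comparison of the strains, 2 of the 7 arms changed by at least 2-fold, 1 in each direction. To be called, a miRNA had to pass a Benjamini-Hochberg adjusted p of 0.05 in edgeR's quasi-likelihood test with a 2-fold or larger difference. Of all tested miRNAs, 16.5% were increased and 13.6% decreased by this rule, 30% in all, so the share of called members is near the background. When let-7 and miR-98 were left out of the library totals, where they took 19.2% to 19.7% of the counts in ΔTUT4/7 and 5.57% to 6.36% in wild type libraries, 183 miRNAs were increased and 81 decreased in place of 136 and 112, and the median of all 826 log2 fold changes moved from 0.013 to 0.23. At an adjusted p under 0.05 alone, 5 of the 7 members were lower and 1 was higher, against 21.9% and 23.2% of the tested miRNAs, 45.2% in all. The strains did not overlap in 6 of the 7 members, against 58.4% of all tested miRNAs. In 5 members the ΔTUT4/7 libraries were the lower and in 1 the higher, against 29.5% and 28.8%. Fitted log2 fold changes were below 0 in 6 of the 7 members and in 49.6% of all tested miRNAs. The 7 members come from 4 hairpins in 2 host genes, so they are not independent members to set against these shares. The median log2 fold change of the 7 arms was -0.42 and that of the 4 3p arms was -0.71.

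miR-301b-3p fell by 1.84 on the log2 scale (standard error 0.25, edgeR adjusted p = 0.000129), from a wild type level of 302.3 ± 123.3 CPM to 84.3 ± 9.22 CPM (SD, n = 3 each), which is 3.58-fold. Of the 826 tested miRNAs it had the 59th lowest fold change. Without wild type replicate 3, the library with the highest level, it fell by 1.46 on the log2 scale (edgeR adjusted p = 3.86e-05), or 2.75-fold. miR-301a-5p rose by 1.93 on the log2 scale (standard error 0.28, edgeR adjusted p = 0.000170), from 2.51 ± 0.436 CPM to 9.65 ± 0.998 CPM (SD, n = 3 each), which is 3.82-fold. It ranked 65th from the highest fold change, and without wild type replicate 3 it rose by 1.84. Both calls held in each of the 15 alternatives run, in which miR-301b-3p had log2 fold changes from -2.03 to -1.46 and miR-301a-5p from 1.60 to 2.16.

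The other arms changed by less than 2-fold. miR-130b-3p, from a group II hairpin, fell by 0.84 on the log2 scale (standard error 0.15, edgeR adjusted p = 0.000911), or 1.80-fold. miR-454-3p fell by 0.58 (standard error 0.12, edgeR adjusted p = 0.00187), or 1.499-fold. Both stayed lower with an adjusted p under 0.05 in each of the 15 alternatives, with adjusted p of at most 0.00730 and 0.0273 by the tools run. miR-301a-3p had a log2 fold change of -0.42 (edgeR adjusted p = 0.0304) and miR-130b-5p one of -0.41 (edgeR adjusted p = 0.0487). Neither held in every alternative: once let-7 and miR-98 were taken out of the totals, miR-301a-3p had -0.20 (adjusted p = 0.268 by edgeR) and miR-130b-5p -0.18 (adjusted p = 0.347 by edgeR), and miR-301a-3p was also lost without any 1 of the ΔTUT4/7 libraries, with adjusted p of 0.0639 to 0.107. miR-130b-5p was lost without any 1 library except wild type replicate 3, with edgeR adjusted p of 0.0729 to 0.156. miR-454-5p did not pass, with a log2 fold change of -0.19 and a 95% interval of -0.57 to 0.20. Without wild type replicate 3 the log2 fold changes were -0.70 for miR-130b-3p, -0.53 for miR-454-3p, -0.28 for miR-301a-3p, -0.38 for miR-130b-5p and -0.29 for miR-454-5p, with the same calls. miR-19a-3p and miR-19b-3p, which carry GUGCAA in their first 8 bases, had log2 fold changes of 0.88 and 0.68 in the same fit (edgeR adjusted p = 0.000678 and 0.000648), opposite to the 4 arms with the full seed.

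**Figure D2:**
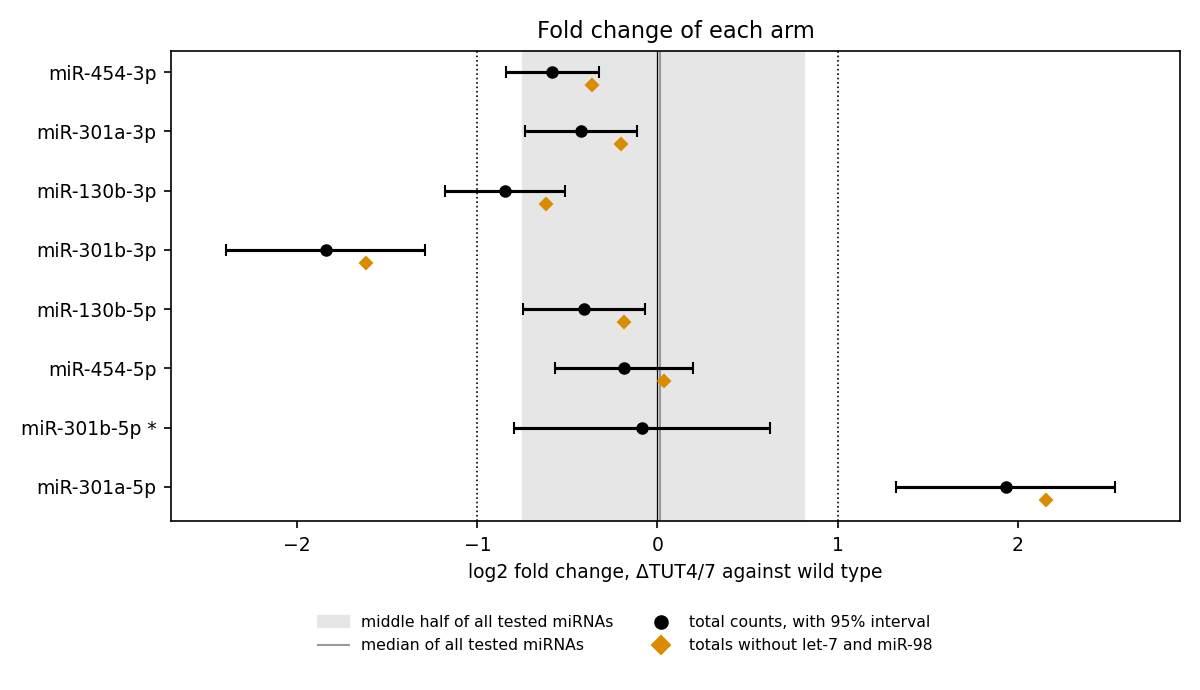
Fitted log2 fold change of each arm, ΔTUT4/7 against wild type, with its 95% interval (black) and the value when let-7 and miR-98 are left out of the library totals (orange, not drawn for miR-301b-5p, the arm outside the list). The grey band is the interquartile range of all tested miRNAs and dotted lines mark 2-fold. Only miR-301b-3p (-1.84) and miR-301a-5p (1.93) lie past the dotted lines.

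The arms with the seed AGUGCAA may act on the same targets, so their sum was taken in each library. The sum over the 4 arms was 6723, 6602 and 6264 CPM in ΔTUT4/7 and 9236, 9397 and 11271 CPM in wild type replicates 1, 2 and 3. The means were 6530 ± 237.5 and, for the wild type, 9968 ± 1132 CPM (SD, n = 3 each), or 0.653% and 0.997% of all counts, 1.53-fold lower in ΔTUT4/7 and without overlap. Once let-7 and miR-98 were taken out of the totals, the sum was 1.31-fold lower, and without wild type replicate 3 it was 1.43-fold lower. No test was made of this sum, since the members were chosen with results known.

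miR-454-3p gave 61.2% ± 1.73 of the sum in ΔTUT4/7 and 60.3% ± 2.59 in wild type cells (SD, n = 3 each), and its libraries overlapped. miR-301a-3p gave 24.3% ± 1.98 and 21.2% ± 1.02, also with overlap. The pair from chromosome 22 gave less of the sum in ΔTUT4/7. miR-130b-3p went from 15.5% ± 0.912 in wild type to 13.2% ± 0.415, and miR-301b-3p from 2.97% ± 0.852 to 1.29% ± 0.166 (SD, n = 3 each), neither with overlap. Together the levels of miR-130b-3p and miR-301b-3p were 946 ± 49.97 CPM in the knockout and 1850 ± 386 CPM in the wild type, 1.95-fold lower. Those of miR-301a-3p and miR-454-3p were 5583 ± 188.3 and 8119 ± 746 CPM, 1.45-fold lower (SD, n = 3 each).

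**Figure D3:**
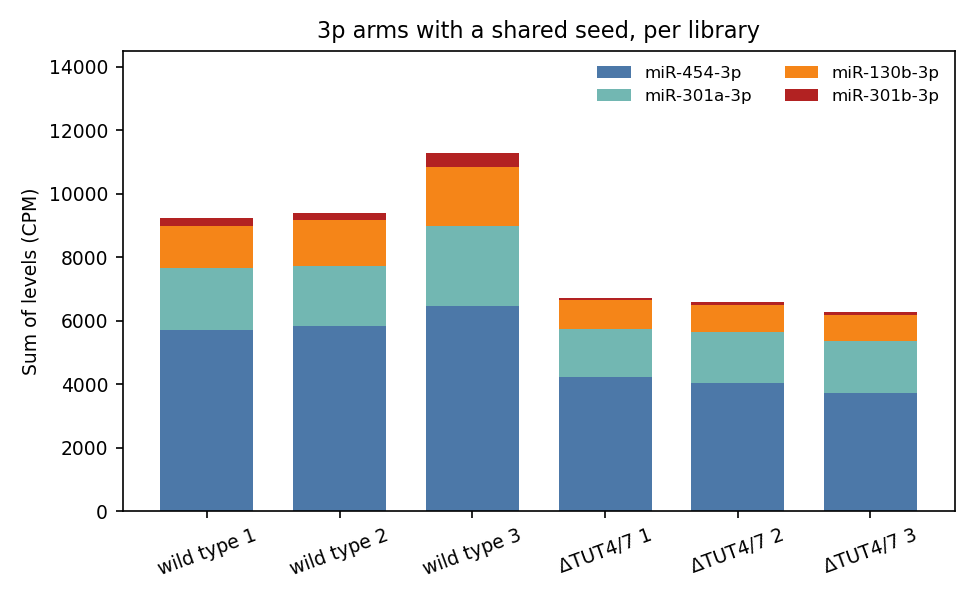
Levels in CPM of the 4 arms with the seed AGUGCAA, stacked for each library. The bars reach 9236 to 11271 CPM in wild type and 6264 to 6723 CPM in ΔTUT4/7, and miR-454-3p fills about the same part of each bar.

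Neighbouring hairpins of the same host gene were compared within each library, which does not depend on the library total. Whether the hairpins of a pair are made from the same transcript in these cells was not tested. The ratio of miR-130b-3p to miR-301b-3p was 12.4, 9.34 and 9.32 in ΔTUT4/7 and 5.55, 6.57 and 4.16 in wild type replicates 1, 2 and 3. It was 1.92-fold higher in ΔTUT4/7, with every ΔTUT4/7 library above every wild type library (2-sided exact permutation test, p = 0.1, the smallest that 3 against 3 libraries can give, and 0.2 when adjusted over the 2 pairs). Without wild type replicate 3 it was 1.70-fold higher. The ratio of miR-301a-3p to miR-454-3p was 0.353, 0.401 and 0.440 in ΔTUT4/7 and 0.343, 0.327 and 0.389 in wild type replicates 1, 2 and 3. It was 1.13-fold higher in ΔTUT4/7, with overlap (2-sided exact permutation test, p = 0.2).

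The ratio of the 5p to the 3p arm rose in both miR-301 hairpins, which lie on different chromosomes. It was tested with limma on the log2 ratio in all 200 hairpins that had both arms tested under matching names, and again does not depend on library totals. In miR-301a the 5p arm made up 0.694%, 0.614% and 0.517% of the counts of both arms in ΔTUT4/7 and 0.151%, 0.132% and 0.0824% in wild type replicates 1, 2 and 3. The ratio was 5.01-fold higher, a log2 change of 2.32 (standard error 0.34, limma adjusted p = 0.00228), the second largest rise of the 200. Its parts are a 5p arm that rose and a 3p arm with a log2 fold change of -0.42.

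In miR-301b the 5p arm made up 16.8%, 16.7% and 16.97% in ΔTUT4/7 and 4.8%, 5.39% and 6.37% in wild type replicates 1, 2 and 3. The ratio was 3.49-fold higher, a log2 change of 1.80 (standard error 0.23, limma adjusted p = 0.00106), the sixth largest rise. Here the 5p arm reached 14.98, 18.5 and 17.7 CPM in the ΔTUT4/7 libraries against 12.2, 12.6 and 30.2 CPM. Its log2 fold change was -0.09 (95% interval -0.79 to 0.62), while the 3p arm fell. The overlap of the 5p arm came from wild type replicate 3 alone, since wild type replicates 1 and 2 lay below every ΔTUT4/7 library. A fold change of this arm without wild type replicate 3 is not given here. Wild type replicate 3 was the highest for both arms of miR-301b, so the spread of its ratio is smaller than that of either arm. Both rises passed with each library left out in turn, with log2 changes of 2.08 to 2.50 for miR-301a and 1.70 to 1.91 for miR-301b. Without wild type replicate 3 they were 2.08 and 1.91, and those of miR-130b and miR-454, described next, 0.32 and 0.24.

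In the other hairpins of the family, the 5p arm of miR-130b made up 13.6% ± 1.56 in ΔTUT4/7 and 10.5% ± 1.25 in wild type cells, and that of miR-454 2.07% ± 0.110 and 1.59% ± 0.323 (SD, n = 3 each). The log2 changes of their ratios were 0.42 (95% interval -0.02 to 0.86, limma adjusted p = 0.187) and 0.41 (95% interval -0.05 to 0.87, limma adjusted p = 0.218). These intervals leave room for no change and for a rise of up to 0.87. Of all 200 hairpins, 15.5% passed an adjusted p under 0.05 in either direction and 9.5% with a higher ratio, against 2 of the 4 hairpins here. In these 4 the 3p arm is the more abundant, and the 200 include hairpins of both kinds. Other hairpins with a more abundant 3p arm also passed with a rise, so a rise was not particular to this family. They were miR-551b, miR-365a, miR-365b, miR-25, miR-132, miR-141, miR-148a, miR-19a, miR-22, miR-221 and miR-23b. The log2 changes of miR-551b, miR-365a and miR-25 were 1.90, 1.60 and 1.05 (limma adjusted p = 0.00106, 0.0104 and 0.0114). Of this kind, only miR-374c passed with a fall, of 1.52 (limma adjusted p = 0.0416). The other hairpins that passed with a fall had a more abundant 5p arm. Whether the change follows the more abundant arm was not tested. The interquartile range of all changes was -0.35 to 0.63. Differences between the hairpins of the family were not tested.

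**Figure D4:**
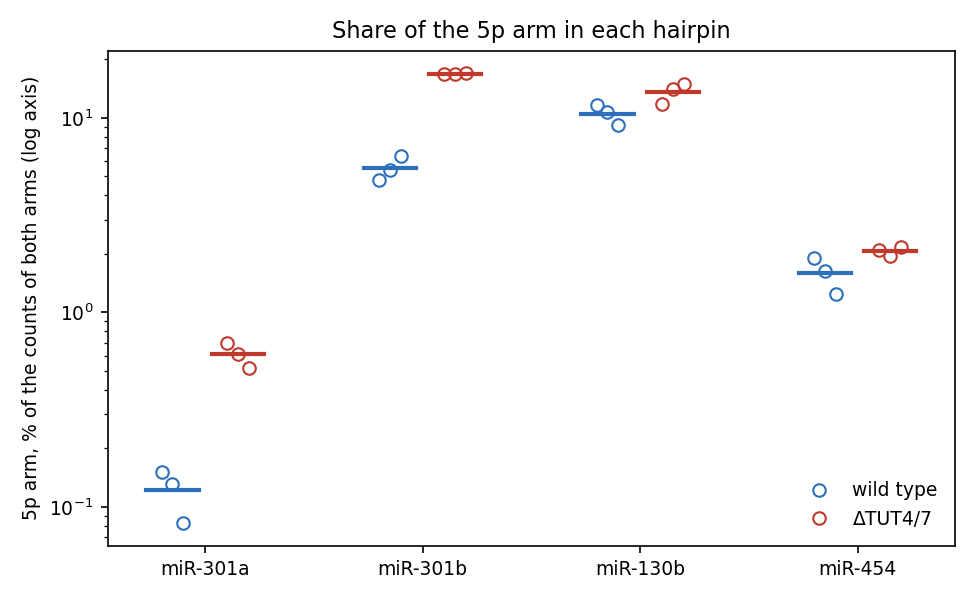
Share of the 5p arm in the counts of both arms (percent, log axis) for each hairpin and library, wild type in blue and ΔTUT4/7 in red, with bars at the means. The strains are far apart in miR-301a and miR-301b and closer in miR-130b and miR-454.

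**Figure D5:**
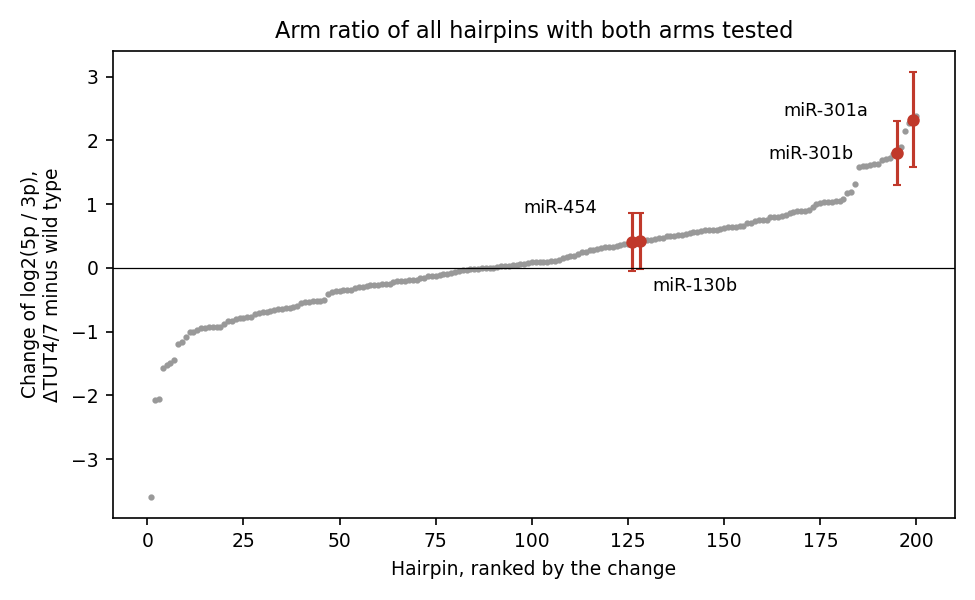
Change of log2(5p/3p) between ΔTUT4/7 and wild type in 200 hairpins ranked by size (grey), with the 4 hairpins of the family in red with 95% intervals. miR-301a (2.32) and miR-301b (1.80) lie at the upper end, and miR-130b (0.42) and miR-454 (0.41) inside the interquartile range.

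The miRNAs whose profile over the 6 libraries was most like that of a 3p arm were found among 384 others with a mean of at least 10 CPM, by the root mean square difference of log2(CPM + 1) centred on each miRNA's mean. For miR-454-3p they were miR-10b-3p (0.057) and miR-183-5p (0.062), for miR-301a-3p miR-365a-3p (0.058) and miR-625-5p (0.070), and for miR-130b-3p miR-624-5p (0.075) and miR-30e-3p (0.078). miR-301b-3p had no profile as close, and its nearest were miR-556-5p (0.15) and miR-551b-3p (0.21). miR-551b-3p had a mean of 229.5 CPM (SD 18.2, n = 3) in ΔTUT4/7 and of 659 CPM (SD 218.0, n = 3) in the wild type. These distances are descriptions over 6 libraries of 2 strains.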

How the data were processed

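Mature miRNAs of 3 ΔTUT4/7 and 3 wild type libraries were prepared with the QIAseq miRNA Library Kit. Reads cut down to 18 nt by the authors were placed on hg38 by Bowtie 1.0.0, and Partek 10.0.22 assigned them to miRBase 22, which gave the deposited table of estimated counts, all of them whole numbers. For mismatches allowed and molecular identifiers, the settings are not given in the sources used here. In this table, wild type values of miR-16-5p are rounded to 3 digits, at most 0.115% of a total. A second deposited file holds only the authors' comparison (p-values, FDR, ratio, fold change, group means) and was not used.

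Counts were tested as deposited with edgeR 4.0.16 (quasi-likelihood) in R 4.3.3, on miRNAs with a highest count above 7, with total counts as library sizes and Benjamini-Hochberg adjustment over all 826. Standard errors were taken from the F statistics. Arm ratios, with 0.5 added to each count, were tested with limma 3.58.1. CPM, exact permutation tests and figures used Python 3.11.15, scipy 1.17.1 and matplotlib 3.10.9. Replicates differed by more than counting noise (chi-square per degree of freedom 13.3 to 54.9 in ΔTUT4/7, 99.2 between wild type replicates 1 and 2, 293.2 and 283.7 between these and replicate 3), and p-values measure only the spread between these libraries. The fits were checked on counts simulated with the same spread between replicates in both strains and no library standing apart, unlike these data. All members, then any miRNA with the same seed and the 2 nearest profiles of each 3p arm, are named. The members and lists were chosen with earlier results of these data known. Alternatives were TMM, RLE, DESeq2 1.42.0, library totals lacking let-7 and miR-98, limma-trend on log2(CPM + 1), other filters, the replicate block, GC trend removal (lowess, span 0.5) and each library left out.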

Additional observations from a re-analysis of the deposited data

How the results depend on the processing

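miR-130b-3p, miR-301b-3p, miR-454-3p and miR-301a-5p kept their direction and an adjusted p under 0.05 in all 15 alternatives run, as did the arm ratios of miR-301a and miR-301b in theirs. The log2 fold change of miR-130b-5p no longer passed with TMM (-0.35), with totals without let-7 and miR-98 (-0.18), with no filter (-0.41), with the replicate block (-0.41) or with the GC trend removed (-0.37), and ranged from -0.44 to -0.35 with each library left out. That of miR-301a-3p no longer passed with totals without let-7 and miR-98 (-0.20), with the replicate block (-0.41) or with the GC trend removed (-0.27), and ranged from -0.50 to -0.28 with each library left out. The members lower with an adjusted p under 0.05 were then 3 in place of 5 in each of these last settings, and 3 to 5 with each library left out, where fewer samples are tested. With totals without let-7 and miR-98, miR-454-5p changed sign (0.038) and the summed 3p arms had a log2 ratio of -0.39 in place of -0.61. Beyond the scaling itself, the causes were not tested. The replicate numbers did not pair the libraries (correlations of deviations -0.17 to -0.10, 0 of 6 libraries closest to their own number), and the replicate block gave 131 increased and 102 decreased miRNAs. The low counts of miR-301a-5p, 9 to 20 in wild type libraries, limit the precision of its fold change.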

Other observations

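Of the 6 hairpins with the largest rise of the 5p to 3p ratio, chosen after their values were seen, the 4 outside the family were miR-215, miR-6832, miR-152 and miR-551b. The log2 changes were 2.39 for miR-215 and 1.90 for miR-551b (limma adjusted p = 0.0154 and 0.00106). miR-6832 and miR-152 had 2.27 and 2.15 and did not pass (limma adjusted p = 0.114 and 0.0778).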
